A study of Homo sapiens with 12 samples.

Results

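EGFR family genes were examined in RNA sequencing of a pair of triple-negative breast cancer lines, MDA-MB-468, which is the line richer in EGFR, and MDA-MB-231. The members were the 8 genes EGFR, ERBB2, ERBB3, AREG, EREG, TGFA, HBEGF and ERRFI1, chosen by symbol, and each had 1 row among the 11529 genes of the table. They comprise 3 receptors, 4 ligands and 1 feedback inhibitor. Each cell line was sequenced as wild-type (WT) control cells and as SMARCA4 knockout (KO) cells, with 3 samples in each of the 4 groups and 12 samples in all. SMARCA4 is a catalytic subunit of the SWI/SNF complex, which moves nucleosomes. The KO cells were polyclonal pools, made by lentiviral delivery of Cas9 with 1 guide RNA and selected with puromycin, and were not clones. The labels give the controls as WT in the titles and as Control in the descriptions. The study used both parental cells and cells given a nontargeting vector, and which of these were sequenced is not settled by the sources used here. MDA-MB-468 cells are known to carry an amplified EGFR gene. DNA was not measured here, and the values below are RNA levels only.

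EGFR, ERBB2 and ERBB3 are receptor tyrosine kinases that signal as pairs at the cell surface. EGFR binds AREG, EREG, TGFA and HBEGF, which are made as membrane-anchored precursors and released by sheddases, whereas ERBB2 has no known ligand and ERBB3 binds neuregulins. The activated receptors drive the RAS-ERK and PI3K pathways, and ERRFI1, also known as MIG6, is induced by that signal and binds and blocks the kinase of EGFR. High EGFR is common in triple-negative breast cancer, and release of ligand by the cells themselves is a known route to receptor activity in epithelial tumors.

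Levels are given as FPKM, fragments per kilobase of transcript scaled to the mapped fragments of the library, which is per length and allows genes to be set side by side. Differences are given as log2 of FPKM + 1, the scale of the deposited values, which understates the change of genes with low FPKM. SMARCA4, the targeted gene, had a mean FPKM in KO cells of 44.3% of the control in MDA-MB-468 and of 32.7% in MDA-MB-231, and all KO samples lay below all controls of their line. Across genes, samples of a group correlated at 0.989 to 0.995. The depth of the libraries is unknown, since the values are FPKM and not counts. The labels do not say whether samples of a group came from separate cultures, and the p-values measure the spread between these samples, which may be technical. The epithelial markers EPCAM, CDH1, KRT5, KRT7, KRT8, KRT18, KRT19, ESRP1, ESRP2 and CLDN4 were all in the table, with a summed FPKM of 1027 to 1586 in control MDA-MB-231 samples and 6506 to 6846 in control MDA-MB-468 samples. The hormone receptor genes ESR1 and PGR were not in the table, and 0 of 7 fibroblast and endothelial markers were in it. Of 6 leukocyte markers, CD14 and CD68 were in it, with a summed FPKM of 23.1 to 65.3 in MDA-MB-468 and of 93.5 to 114 in MDA-MB-231 samples, both genotypes included.

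The upstream sequences of the 4 ligands are shown because these genes had the same order between the cell lines, with the values below. RefSeq start sites were available for 7 of the 8 members, all but ERBB3. The 250 bases before each start were taken from the RefSeq table, whose build is GRCh38.p14, and matched to the GRCh37 genome, the build of the study. Each is printed 5′ to 3′ on the strand of its gene, and capitals mark matches to a CRE motif (TGACGTCA), a TATA box (TATAAA), an AP-1 motif (TGANTCA) or a TEAD motif (GGAATG), searched on both strands. No motif overlapped another in these 4 sequences. TGFA had RefSeq starts at 367 and 747 bases inside the annotated gene, and only the sequence before the former is shown. The AREG sequence lies at chr4:75310603-75310852, the EREG sequence at chr4:75230612-75230861, both on the plus strand, the HBEGF sequence at chr5:139726189-139726438 and the TGFA sequence at chr2:70780959-70781208, both on the minus strand.
AREG: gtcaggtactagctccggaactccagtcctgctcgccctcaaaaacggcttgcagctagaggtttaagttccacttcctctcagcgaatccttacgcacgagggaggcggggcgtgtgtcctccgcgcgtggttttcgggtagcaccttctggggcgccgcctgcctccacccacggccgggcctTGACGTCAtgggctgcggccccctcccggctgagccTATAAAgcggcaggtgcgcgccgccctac
EREG: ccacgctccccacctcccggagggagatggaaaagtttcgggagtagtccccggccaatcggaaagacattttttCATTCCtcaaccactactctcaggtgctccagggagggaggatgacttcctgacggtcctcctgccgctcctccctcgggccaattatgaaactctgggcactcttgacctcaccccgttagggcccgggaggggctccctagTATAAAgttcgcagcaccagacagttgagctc
HBEGF: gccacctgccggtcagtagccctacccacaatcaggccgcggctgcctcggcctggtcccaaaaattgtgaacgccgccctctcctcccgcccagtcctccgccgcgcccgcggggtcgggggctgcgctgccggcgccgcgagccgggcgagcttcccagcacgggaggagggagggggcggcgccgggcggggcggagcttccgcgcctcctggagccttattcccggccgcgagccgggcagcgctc
TGFA: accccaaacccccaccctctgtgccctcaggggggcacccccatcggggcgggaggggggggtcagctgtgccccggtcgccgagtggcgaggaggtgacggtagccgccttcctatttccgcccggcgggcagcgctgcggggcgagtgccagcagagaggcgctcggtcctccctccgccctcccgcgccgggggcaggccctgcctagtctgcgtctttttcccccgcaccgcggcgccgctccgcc
AREG held the CRE motif from 65 to 58 bases before its start and a TATA box from 29 to 24 bases before it. EREG held a TATA box from 32 to 27 bases before its start and a TEAD motif, read as CATTCC on this strand, from 175 to 170 bases before it. HBEGF and TGFA held none of the 4 motifs in these windows, and a match is a description of letters only. Among 34788 promoters of this length, 1.64% held the CRE motif, 10.8% the TATA box, 6.59% the AP-1 motif and 11.9% the TEAD motif. EREG and AREG are neighbors on the plus strand of chromosome 4, with 56387 bases from the end of EREG to the start of AREG. The AREG sequence occurs at a second place in GRCh37, before a copy of the gene called AREGB at chr4:75480629-75490486. AREGB was not in the table, and 97.43% of the 1204 words of 31 bases in the AREG transcript also occur in it, so the AREG values are uncertain because reads could be split between the copies.

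In control cells, EGFR and ERBB3 were higher in MDA-MB-468, and all 4 ligands and ERRFI1 were higher in MDA-MB-231, while ERBB2 did not pass the test. With limma and Benjamini-Hochberg adjustment over all genes, 7 of the 8 members differed, 2 higher and 5 lower in MDA-MB-468. The limits for a call were 0.05 on the adjusted p and 0.5 on the size of the log2 difference, which 64.1% of all genes passed in this comparison, so the members' count by itself is near the background. The median log2 difference of the members was -1.72, against 0.01 over all genes.

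EGFR, the receptor of the 4 ligands, spans chr7:55086710-55279321 on the plus strand. It had an FPKM of 511, 468 and 473.5 in control MDA-MB-468 samples and of 505, 517 and 608 in KO samples. In MDA-MB-231 it was 42.1, 36.9 and 33.05 in controls and 42.1, 38.9 and 42.6 in KO samples. Every MDA-MB-468 sample was far above every MDA-MB-231 sample, and the KO and control samples overlapped in both lines. The control means were 484 ± 23.3 and 37.4 ± 4.53 FPKM (SD, n = 3), which is 12.96 times higher in MDA-MB-468, a log2 difference of 3.67 (standard error 0.098, limma adjusted p = 1.64e-08). EGFR was the highest of the 8 members in MDA-MB-468 and the third in control MDA-MB-231. EGFR-AS1 is annotated antisense to EGFR and was not in the table.

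ERBB3, which has a weak kinase and signals through its partners, spans chr12:56470583-56497289. It had an FPKM of 35.4, 25.7 and 25.9 in control MDA-MB-468 samples against 1.62, 1.42 and 2.29 in control MDA-MB-231 samples. The groups did not overlap, and ERBB3 was the lowest of the 8 members in MDA-MB-231. The control mean was 16.3 times higher in MDA-MB-468, a log2 difference of 3.43 (standard error 0.156, limma adjusted p = 3.21e-07). ERBB3 was so low in MDA-MB-231 that it could pass the filter of the deposited table (given below) only by being higher in MDA-MB-468. This p-value is thus a description and no added support.

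ERBB2, also known as HER2 and the preferred partner of the other receptors, spans chr17:37844167-37886679. It had an FPKM of 24.0, 20.8 and 24.1 in control MDA-MB-468 samples and of 23.5, 24.5 and 23.3 in control MDA-MB-231 samples. These groups overlapped, and the log2 difference was -0.05 with a 95% interval of -0.24 to 0.13 (limma adjusted p = 0.557). MIEN1 and PGAP3 are annotated antisense to ERBB2, and the strand setting of the counting is not given in the sources used here.

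The receptors together summed to 536 ± 29.9 FPKM (SD, n = 3) in control MDA-MB-468 cells and to 62.9 ± 4.28 FPKM in control MDA-MB-231 cells. EGFR made up 90.3% ± 0.692 of this sum in MDA-MB-468 against 59.3% ± 3.17 in MDA-MB-231. ERBB2 made up 4.28% ± 0.288 and 37.9% ± 2.57. The ratio of EGFR to ERBB2 was thus 21.2 ± 1.44 in MDA-MB-468 against 1.57 ± 0.195 in MDA-MB-231.

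HBEGF, the heparin-binding ligand, spans chr5:139712428-139726188 on the minus strand. It had an FPKM of 1.37, 1.40 and 1.77 in control MDA-MB-468 samples and of 76.9, 56.2 and 64.4 in control MDA-MB-231 samples. HBEGF was the ligand with the highest level in MDA-MB-231, where it lay above EGFR in every group. The mean was 43.5 times higher in MDA-MB-231, a log2 difference of -4.72 for MDA-MB-468 minus MDA-MB-231 (standard error 0.123, limma adjusted p = 1.47e-08). HBEGF was so low in MDA-MB-468 that it could pass the filter of the deposited table (given below) only by being higher in MDA-MB-231. Its p-value is thus a description and no added support.

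AREG, amphiregulin, spans chr4:75310853-75320722. Its FPKM was 0.17, 0.19 and 0.26 in control MDA-MB-468 samples and 8.15, 8.34 and 8.08 in control MDA-MB-231 samples, subject to the limit of its copy. EREG, epiregulin, spans chr4:75230862-75254466, and its FPKM was 0.13, 0.08 and 0.11 against 6.47, 5.43 and 5.60. Both genes were near 0 in every MDA-MB-468 sample and the groups did not overlap. The log2 differences were -2.93 for AREG (standard error 0.066, limma adjusted p = 7.17e-09) and -2.62 for EREG (standard error 0.079, limma adjusted p = 3.12e-08). The deposited table kept only genes with a mean and SD of FPKM of at least 1. Genes this low in MDA-MB-468 could enter only by being higher in MDA-MB-231, so these p-values are a description and no added support. The FPKM ratios, 39.6 and 54.7 times higher in MDA-MB-231, rest on these low values and are imprecise.

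TGFA, transforming growth factor alpha, spans chr2:70674416-70781325 on the minus strand. It had an FPKM of 11.6, 12.8 and 13.2 in control MDA-MB-468 samples and of 25.5, 29.2 and 28.8 in control MDA-MB-231 samples. All MDA-MB-468 samples lay below all MDA-MB-231 samples, with a mean 2.22 times higher in MDA-MB-231 and a log2 difference of -1.09 (standard error 0.084, limma adjusted p = 7.12e-06). TGFA was the smallest of the 4 ligand differences on both scales.

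The ligand sum was 14.4 ± 1.05 FPKM (SD, n = 3) in control MDA-MB-468 cells and 108 ± 8.92 FPKM in control MDA-MB-231 cells. The makeup of that sum differed as well. TGFA was 87.3% ± 1.18 of it in MDA-MB-468, where HBEGF was 10.5% ± 0.922. HBEGF was 60.9% ± 4.55 of it in MDA-MB-231, where TGFA was 26.1% ± 3.90, AREG 7.65% ± 0.723 and EREG 5.42% ± 0.152. The ratio of EGFR to the ligand sum was 33.9 ± 4.03 in MDA-MB-468 against 0.347 ± 0.0333 in MDA-MB-231.

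ERRFI1, the feedback inhibitor, spans chr1:8064464-8086369 on the minus strand. It had an FPKM of 31.5, 36.0 and 34.4 in control MDA-MB-468 samples and of 156, 183 and 196 in control MDA-MB-231 samples. The inhibitor was thus lower in the line with more EGFR RNA, with no overlap. The mean was 5.25 times higher in MDA-MB-231, a log2 difference of -2.35 (standard error 0.102, limma adjusted p = 2.39e-07), and ERRFI1 was the highest of the 8 members in both MDA-MB-231 groups.

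**Figure D1:**
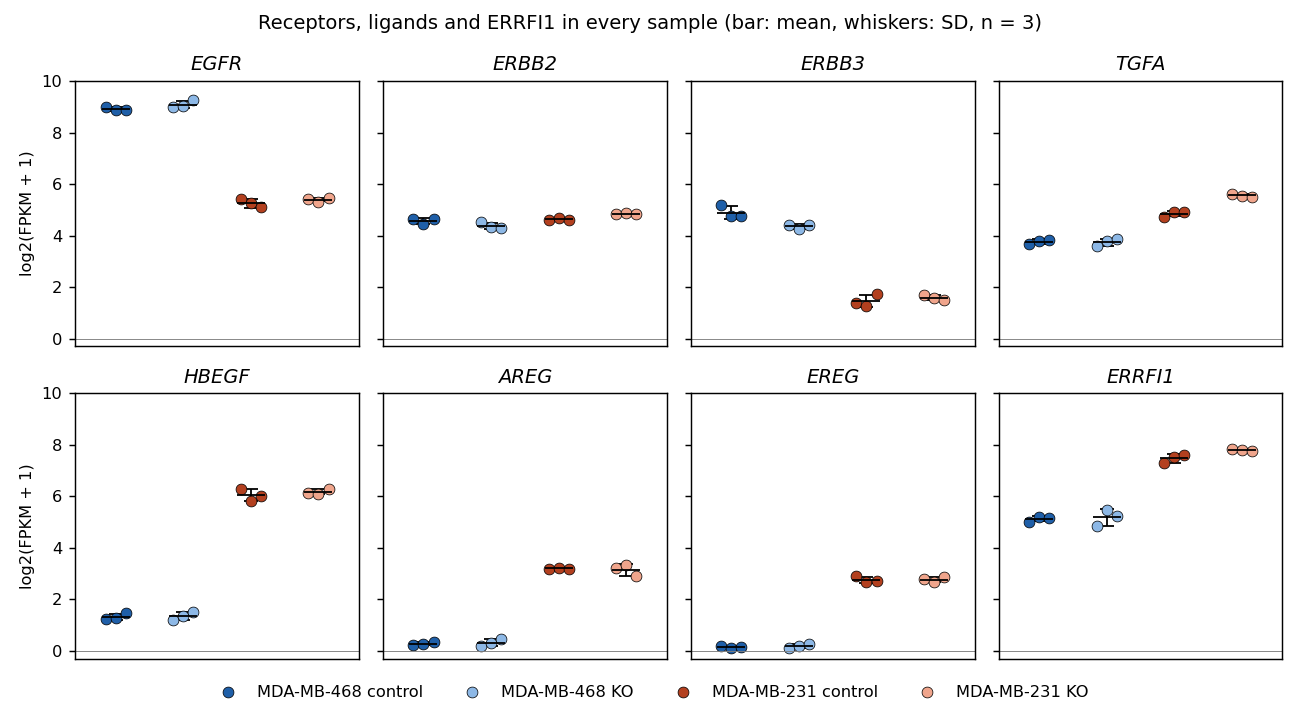
Each panel shows 1 gene, with log2(FPKM + 1) on the vertical axis and the 4 groups side by side (points: samples, bar: mean, whiskers: SD, n = 3). EGFR and ERBB3 lie higher in MDA-MB-468, ERBB2 is level in the controls, and the ligands and ERRFI1 lie higher in MDA-MB-231. TGFA in MDA-MB-231 rises from a mean of 4.85 in controls to 5.56 in KO cells.

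Ordered by FPKM, control MDA-MB-468 cells ran EGFR, ERRFI1, ERBB3, ERBB2, TGFA, HBEGF, AREG, EREG. Among neighbors in that order, the samples of ERRFI1 and ERBB3 overlapped and those of all other neighbors did not. In MDA-MB-468 KO cells ERBB3 and ERBB2 changed places, and the samples of that pair and of AREG and EREG overlapped. Control MDA-MB-231 cells ran ERRFI1, HBEGF, EGFR, TGFA, ERBB2, AREG, EREG, ERBB3, with no overlap between neighbors. In MDA-MB-231 KO cells TGFA passed EGFR, with TGFA at 47.7, 45.7 and 44.7 FPKM above the EGFR values of 42.1, 38.9 and 42.6.

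The genes around EGFR were compared because the gene is known to be amplified in MDA-MB-468. Of the measured genes starting within 1 Mb of the EGFR start in GRCh37, 7 of 7 were higher in control MDA-MB-468, against 3773 of 11529 genes higher over the table. The order of ZNF713 among them was fixed by the filter of the table, as given below. Distances are between the leftmost annotated coordinates of the genes. SEC61G, a subunit of the channel for secreted proteins, lies at -266767 bases from EGFR and had 4287 ± 129 FPKM (SD, n = 3) in control MDA-MB-468 against 179 ± 22.3 in control MDA-MB-231. Its log2 difference was 4.58 (limma adjusted p = 4.94e-09), larger than that of EGFR. LANCL2 lies 346320 bases after EGFR and had 338 ± 37.2 against 10.8 ± 0.473 FPKM, a log2 difference of 4.84 (limma adjusted p = 3.49e-09). These flanking genes were thus 23.9 and 31.3 times higher, against 12.96 times for EGFR itself.

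The other neighbors lay farther along the chromosome. VOPP1 differed by 4.12 on the log2 scale and ZNF713, a zinc finger gene, by 3.71, at 417039 and 868439 bases after EGFR. ZNF713 was at 0.563 FPKM in control MDA-MB-231 cells and could enter the filtered table only through MDA-MB-468. Its order was thus fixed by its presence there. GBAS, also named NIPSNAP2, differed by 2.63, MRPS17, a mitochondrial ribosomal protein gene, by 2.05 and PSPH, an enzyme of serine synthesis, by 2.79. The last 3 lie between 932776 and 992034 bases after EGFR and had the smallest differences of the 7. Copy number was not measured, and its part in these differences was not tested. With SMARCA4 KO 0 of 7 were called by limma in either cell line, where 5 of 7 in MDA-MB-468 and 1 of 7 in MDA-MB-231 had an unadjusted p under 0.05, as did 2899 and 3596 of all 11529 genes. Their log2 differences with KO ran from -0.27 to 0.25 in the former and from -0.14 to 0.24 in the latter, and the lowest adjusted p was 0.0555 for GBAS in MDA-MB-231.

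Genes of the pathway around the members were taken from 5 lists, of which 74 genes besides the members were in the table. In control cells 52 of them (70.3%) were called, near the 64.1% of all genes, 15 higher and 37 lower in MDA-MB-468, with a median log2 difference of -0.48. Of the 8 other ERBB receptors and ligands listed, NRG1 alone was in the table. NRG1, a ligand of ERBB3, was listed at 0 in all 6 MDA-MB-468 samples and had 47.3 ± 2.33 FPKM (SD, n = 3) in control MDA-MB-231 cells, so that no fold is given. ERBB3 and this ligand had opposite orders between the lines. A gene at 0 in MDA-MB-468 could enter the filtered table only through MDA-MB-231, so the order of NRG1 was fixed by its presence there.

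Among 20 measured target and feedback genes of ERK, 15 were lower and 1 was higher in control MDA-MB-468, with a median log2 difference of -1.76. Over all 11529 genes, 3622 were called lower and 3773 higher, with a median of 0.01. DUSP6, a phosphatase that acts on ERK, had 7.15 ± 0.776 FPKM (SD, n = 3) in control MDA-MB-468 against 104 ± 1.65 in control MDA-MB-231, a log2 difference of -3.69 (limma adjusted p = 7.92e-09). FOSL1, a subunit of AP-1, had 5.42 ± 1.21 against 287 ± 40.9 FPKM, a log2 difference of -5.50. PHLDA1 and the receptor kinase gene EPHA2 differed by -3.35 and -2.86 on the log2 scale. The gene that was higher, EGR1, an early-response transcription factor, had 75.1 ± 27.3 against 12.9 ± 12.3 FPKM and varied widely between samples. Most of these genes thus had the same order between the lines as the ligands and ERRFI1.

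Sheddases and processing genes were mixed, with 2 of 7 higher and 3 lower in control MDA-MB-468. ADAM17, the main sheddase of AREG, EREG, TGFA and HBEGF, was higher by 0.59 on the log2 scale (limma adjusted p = 0.000151). RHBDL2, a rhomboid protease, was higher by 2.57, while the proprotein convertase gene FURIN was lower by a log2 difference of -2.33, ADAM9 by one of -1.16 and RHBDF2, a cofactor of ADAM17, by one of -0.56. Of 17 receptor inhibitors and turnover genes, 4 were higher and 9 lower. CBLC, a ubiquitin ligase of the CBL family, had 28.6 ± 2.07 FPKM against 0.147 ± 0.0833, and LRIG1, a negative regulator of EGFR, differed by 1.97. CBLC could enter the filtered table only through MDA-MB-468, so its order was fixed by its presence there. CAV1, the main protein of caveolae, SOCS3 and the phosphatase gene PTPRJ differed by -4.04, -2.23 and -2.21. Of 29 adaptors and RAS-ERK and PI3K genes, 8 were higher and 9 lower, and the largest differences were those of the adaptors GRB7 (2.72) and GAB2 (2.24), of PIK3R1 (2.49), a PI3K regulatory subunit, of SOS1 (1.56) and of MAP2K2 (-0.94).

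Markers of epithelial and mesenchymal cells moved with these differences. All 10 of 10 epithelial markers were higher in control MDA-MB-468, where 3773 of all 11529 genes were called higher and 3622 lower. Of 9 measured mesenchymal markers, 8 were lower, CAV1 of the inhibitor list among them, and CD44 was higher, and their summed FPKM was 964 to 1084 in control MDA-MB-468 and 2887 to 3407 in control MDA-MB-231 samples. The part of cell state in the members' levels was not tested.

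**Figure D2:**
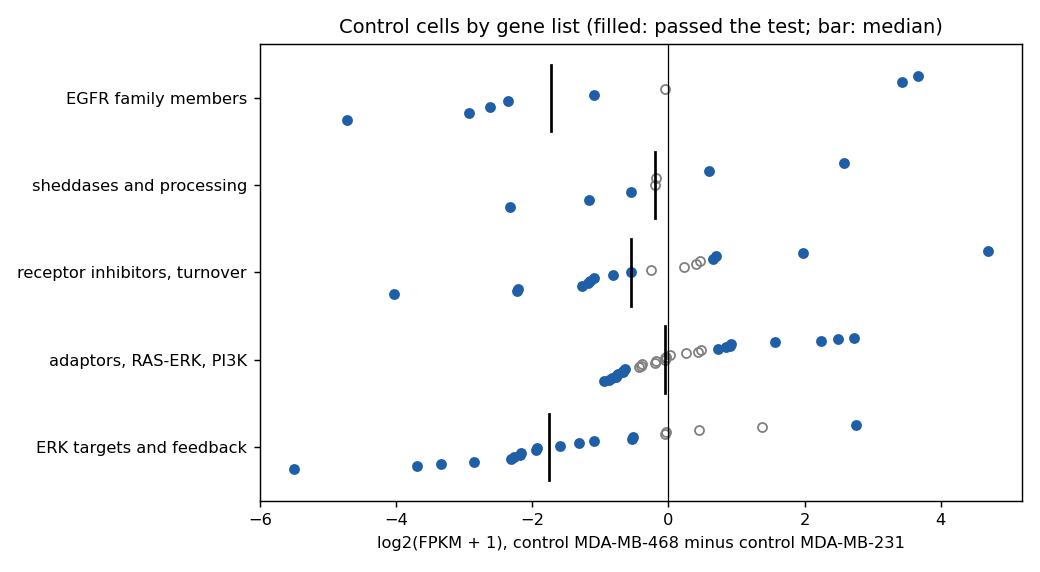
Difference in log2(FPKM + 1) between control MDA-MB-468 and control MDA-MB-231 cells for the 8 members and 4 of the pathway lists. Each point is 1 gene, filled where it was called, and the bar is the median of the list. The medians of the members (-1.72) and of the ERK targets (-1.76) lie below 0, while the adaptors center near 0 at -0.06.

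SMARCA4 KO in MDA-MB-468 gave no member past the test, 0 of 8, where 2.14% of all genes were called. At an unadjusted p under 0.05, 1 of the 8 passed, ERBB3, as did 2899 of all 11529 genes. It fell short after adjustment, with an FPKM of 35.4, 25.7 and 25.9 in controls and of 20.5, 18.2 and 20.1 in KO samples. All KO samples lay below all controls, and the KO mean was 67.5% of the control, but control replicate 1 stood above the other controls. The log2 change was -0.53 with a 95% interval of -0.87 to -0.20 (unadjusted p = 0.00852, adjusted p = 0.0857, both from limma). The adjusted p was 0.0427 among genes with a mean FPKM of at least 5 and 0.0264 with 1 fit of all 12 samples, where ERBB3 was called. Over 10 alternatives other than leaving out a sample, it ran from 0.0264 to 0.211, and 8 of them left ERBB3 uncalled. The adjusted p was 0.0785 when samples were blocked by replicate number.

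EGFR differed by 0.16 on the log2 scale in MDA-MB-468 (95% interval -0.05 to 0.38, limma adjusted p = 0.303). For ERBB2, KO samples had 21.8, 19.1 and 18.7 FPKM against 24.0, 20.8 and 24.1 in controls, a log2 difference of -0.20 (95% interval -0.41 to 0.02, limma adjusted p = 0.228). Both genes overlapped between the groups. Within the pairs of like replicate number ERBB2 was lower in KO in 3 of 3, with an adjusted p of 0.182 in limma with the block.

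The ligands and ERRFI1 had small differences with KO in MDA-MB-468. TGFA had 11.04, 12.7 and 13.4 FPKM in KO samples, a log2 difference of -0.02 (95% interval -0.23 to 0.20). HBEGF had 1.29, 1.58 and 1.85 FPKM in KO samples, a difference of 0.03 (-0.23 to 0.29). AREG at 0.13, 0.23 and 0.37 FPKM and EREG at 0.07, 0.13 and 0.20 FPKM were also near 0 in KO cells. ERRFI1 had 27.5, 43.1 and 37.2 FPKM in KO samples, a wider spread than in controls, and a difference of 0.06 (-0.36 to 0.47). For all 5 genes the KO and control samples overlapped. The ligand sum was 14.4 ± 1.69 FPKM (SD, n = 3) in KO cells, against the 14.4 of controls.

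In MDA-MB-231, TGFA was higher in SMARCA4 KO than in control cells, the 1 of 8 members that was called, where 3.7% of all genes were called. TGFA had 25.5, 29.2 and 28.8 FPKM in controls and 47.7, 45.7 and 44.7 FPKM in KO samples. All KO samples were above all controls, and the KO mean was 165% of the control. The log2 change was 0.71 (standard error 0.066, 95% interval 0.54 to 0.87, limma adjusted p = 0.00817). It was called without each of the 6 samples in turn, with log2 changes from 0.65 to 0.74 and adjusted p up to 0.0498. Blocked by replicate number, its adjusted p was 0.0707 and it was not called, nor was it with a log2 fold limit of 1. In this line, KO and control samples of like replicate number also share the p number of their descriptions, so pairing by label is possible. In bulk RNA of a pool, fewer cells with a change and less change per cell cannot be told apart.

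ERBB2 was higher in every MDA-MB-231 KO sample, at 27.3, 28.7 and 27.4 FPKM against 23.5, 24.5 and 23.3 in controls. Its log2 difference of 0.22 (95% interval 0.10 to 0.33) had a limma adjusted p of 0.0406 but lay under the fold limit, so that it was not called. Corrected for GC content, an alternative chosen after seeing the data, that difference was 0.13 (adjusted p = 0.188). ERRFI1 was likewise above its controls in every KO sample, at 230.1, 219.7 and 214 FPKM against 156, 183 and 196, which is 124% of the control mean. Its log2 difference was 0.31 (95% interval 0.09 to 0.54, limma adjusted p = 0.0837).

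The other receptors and ligands overlapped between KO and control MDA-MB-231 samples. EGFR differed by 0.14 on the log2 scale (95% interval -0.09 to 0.38) and ERBB3, at 2.27, 1.97 and 1.83 FPKM in KO samples, by 0.13 (-0.18 to 0.45). HBEGF, at 68.8, 67.9 and 76.9 FPKM in KO samples, differed by 0.12 (-0.18 to 0.42). AREG, at 8.35, 9.13 and 6.42 FPKM, differed by -0.05 (-0.34 to 0.25), and EREG, at 5.87, 5.30 and 6.34 FPKM, by 0.00 (-0.21 to 0.21). The ligand sum was 131 ± 3.20 FPKM (SD, n = 3) in KO cells against 108 ± 8.92 in controls, and the share of TGFA in it was 35.1% ± 1.69 against 26.1% ± 3.90. The share of HBEGF was 54.3% ± 2.56 in KO cells, and the sum and the shares were not tested. Among the cell type markers, CDH1 rose by 0.54, LOX fell by 0.54 and CD14 rose by 1.18 on the log2 scale with KO in this line (limma adjusted p = 0.0442, 0.0393 and 0.0294), with 0 of the markers called in MDA-MB-468. Those were 1 of 10 epithelial, 1 of 9 mesenchymal and 1 of 2 leukocyte markers in the table. KRT8 in MDA-MB-468 differed by 0.495 (limma adjusted p = 0.0318) and VIM in MDA-MB-231 by -0.39 (limma adjusted p = 0.0309). Both lay under the fold limit of 0.5 and were not called. Summed FPKM over the epithelial list was 1571 to 1750 in MDA-MB-231 KO samples, overlapping the controls. Over the mesenchymal list it was 2607 to 2786, below the controls. In MDA-MB-468 the epithelial sum was 7390 to 8007 in KO samples, above the 6506 to 6846 of controls. The markers themselves were mixed there, with 6 positive and 4 negative log2 differences and 0 called. EPCAM, CDH1, ESRP1 and ESRP2 were the negative ones. The mesenchymal sum there was 914 to 1048 in KO samples and overlapped the controls. The part of these shifts in the TGFA change was not tested.

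**Figure D3:**
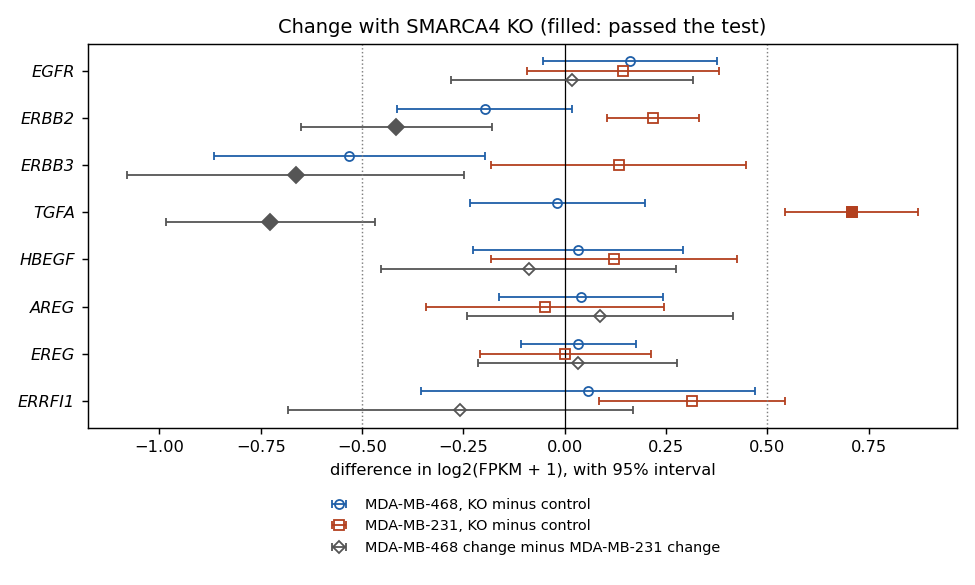
Difference in log2(FPKM + 1) with SMARCA4 KO for each member (horizontal axis), with 95% intervals from limma, for MDA-MB-468 (circles), for MDA-MB-231 (squares) and as the MDA-MB-468 change minus the MDA-MB-231 change (diamonds). Filled symbols passed the test and dotted lines mark a difference of 0.5. TGFA is filled at 0.71 in MDA-MB-231, and the differences between the lines are filled for ERBB2, ERBB3 and TGFA.

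The change with KO was compared between the cell lines by an interaction term, fitted over the 12 samples, with an adjusted p under 0.05 as the limit. Of the 8 members 3 passed, all with the lower change in MDA-MB-468, where 14.7% of all genes passed. TGFA differed by -0.73 (standard error 0.118, 95% interval -0.98 to -0.47, limma adjusted p = 0.00296), with -0.02 in MDA-MB-468 against 0.71 in MDA-MB-231. This difference passed in every alternative run and without each sample in turn.

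ERBB3 differed by -0.66 (95% interval -1.08 to -0.25, limma adjusted p = 0.0387), with -0.53 in MDA-MB-468 against 0.13 in MDA-MB-231, where its FPKM was near 2. It lost its call with quantile normalization (-0.54, adjusted p = 0.0709) and with a pseudocount of 0.1 (-0.75, adjusted p = 0.0674). Without control replicate 1 or 2 of MDA-MB-231 the adjusted p was 0.0774 and 0.0748. Without KO replicate 1 or 2 of MDA-MB-231 it was 0.0911 and 0.0725. Leaving out MDA-MB-468 control replicate 1, KO replicate 2 or KO replicate 3 gave 0.0707, 0.0925 and 0.0606.

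ERBB2 differed by -0.42 (95% interval -0.65 to -0.18, limma adjusted p = 0.0267), with -0.20 in MDA-MB-468 against 0.22 in MDA-MB-231. In KO cells ERBB2 was therefore lower in every MDA-MB-468 sample than in every MDA-MB-231 sample, where the controls of the lines overlapped. Its call was lost in 8 of 12 fits without 1 sample. These were the fits without MDA-MB-231 control replicate 1 or 3 (adjusted p = 0.0535 and 0.0519) and without MDA-MB-231 KO replicate 1 or 2 (0.0511 and 0.0653). In MDA-MB-468 they were those without control replicate 1 or 3 (0.0608 and 0.0544) and without KO replicate 2 or 3 (0.0688 and 0.0566). Log2 differences ranged from -0.48 to -0.38 over all 12 such fits.

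For the other 5 members the difference between the lines did not pass. The largest of these was ERRFI1 at -0.26 (95% interval -0.68 to 0.17, limma adjusted p = 0.389). EGFR differed by 0.02 (-0.28 to 0.32), AREG by 0.09 (-0.24 to 0.42), EREG by 0.03 (-0.21 to 0.28) and HBEGF by -0.09 (-0.45 to 0.28). SMARCA4 itself was reduced more in MDA-MB-231, with a difference of 0.41 between the lines (limma adjusted p = 0.027), and its part in the differences above was not tested.

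The share of the genes around the members that was called with KO was near that of all genes. In MDA-MB-468 it was 1 of 74 (1.35%, against 2.14% of all genes), and blocked by replicate number it was 4 of the 74. Without MDA-MB-468 control replicate 1, 2 or 3 or KO replicate 2 or 3 the count was 0, and without KO replicate 1 it was 6.

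In MDA-MB-231 it was 2 of 74 (2.7%, against 3.7% of all genes), both higher in KO cells. RHBDL2, a rhomboid protease, had 4.61, 4.60 and 4.97 FPKM in controls and 9.23, 7.82 and 9.74 FPKM in KO samples, a log2 change of 0.79 (limma adjusted p = 0.00999). PTPRJ, a receptor phosphatase that acts on EGFR, had 31.8, 41.6 and 33.5 FPKM in controls and 56.9, 55.2 and 53.2 FPKM in KO samples, a log2 change of 0.62 (limma adjusted p = 0.0263). Neither gene overlapped between the groups. The count was 1 without control replicate 1 or 3, or without any of the 3 KO replicates.

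Between the cell lines 13 of the 74 (17.6%) differed in their change with KO, 8 with the higher and 5 with the lower change in MDA-MB-468, near the 14.7% of all genes. ADAM10, a sheddase, had 49.2, 49.9 and 51.6 FPKM in control and 43.96, 45.6 and 47.7 FPKM in KO samples of MDA-MB-468. In MDA-MB-231 it had 54.1, 63.7 and 56.0 FPKM in control and 80.9, 81.3 and 77.6 FPKM in KO samples. Its KO samples thus lay below the controls in MDA-MB-468 and above them in MDA-MB-231, a difference of -0.59 on the log2 scale (limma adjusted p = 0.00335). ADAM17 differed by -0.40 and RHBDL2 by -0.91, so that 3 of 7 sheddases and processing genes passed with the lower change in MDA-MB-468. Called or not, 4 of the 7 had the lower and 3 the higher change there, with a median difference of -0.11. CAV1 differed by 1.47, SOCS3 by 0.91 and SOCS5, with SOCS3 a member of a family of signaling inhibitors, by 0.38. The adaptor SHC1 differed by -0.28. Among ERK targets, SPRY2 differed by 1.09, SPRY1 by -0.96, IER3 by 0.89, the phosphatase gene DUSP5 by 0.70 and the transcription factor gene ETV4 by 0.53. Without MDA-MB-468 control replicate 1 or 2, or without MDA-MB-231 KO replicate 2, the count was 8.

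The genes with the pattern most like each member were found by Pearson's r over the 12 samples, after the mean of its cell line was taken off each value, among the 10187 genes whose mean log2 value was over 2. The points share cell line pools and libraries, and the values are a description. TGFA was followed most closely by ALDH1A3 (0.98), TSPAN33 (0.97) and FAM83H (0.97), and ERRFI1 by GPX3 (0.92), ENO2 (0.90) and ZNF263 (0.88). For EGFR they were MYO10 (0.92), STK40 (0.90) and ZNF532 (0.90), for ERBB2 C11orf54 (0.93), ZBTB8A (0.92) and PLXNA3 (0.91), and for ERBB3 SYMPK (0.93), GPR160 (0.92) and PJA2 (0.92). For HBEGF they were NPIPA1 (0.93), STARD7 (0.92) and SIM2 (0.92), and for EREG ELK4 (0.88), PAK2 (0.87) and MFHAS1 (0.86). AREG had the lowest best match of the 8, with ZNF738 (0.83), MSANTD2 (0.80) and SFI1 (0.77). Among the members themselves the highest values were 0.78 for EREG and HBEGF, 0.75 for TGFA and ERRFI1 and 0.71 for EGFR and EREG, while the neighboring genes AREG and EREG stood at -0.25.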

How the data were processed

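RNA of 12 samples was sequenced from TruSeq stranded mRNA libraries. The authors used Trimmomatic for trimming, STAR for alignment to hg19 and RSEM for FPKM, and left out genes whose FPKM had a mean or SD below 1. The deposited unit is log2(FPKM + 1), for 11529 genes, and the annotation release is not given in the sources used here. In the deposited values the smallest mean FPKM was 1.07. AREG, EREG, NRG1, CBLC and ZNF713 lay below 1 FPKM in 1 cell line and passed that filter through the other. HBEGF, near 1.5 FPKM in MDA-MB-468, and ERBB3, near 2 FPKM in MDA-MB-231, also passed it through the line where they were higher. In 18 rows the symbol is a date; they stayed in the tests unnamed.

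FPKM was recovered as 2 to the power of the log2 value minus 1. Groups came from the labels. Each comparison was fitted on the deposited log2 values with limma 3.58.1 in R 4.3.3 (lmFit, eBayes without a trend, two-sided) with Benjamini-Hochberg adjustment over all genes, and KO changes were compared between cell lines as the interaction of 1 fit of 12 samples. The code was tested on simulated data. Depth is unknown, so no interval or floor from counts was computed. Titles give replicate numbers. Deviations of same-numbered KO and control samples from their group means correlated at 0.25, 0.16 and 0.12 in MDA-MB-468, all over 0.1, and at -0.05, 0.07 and -0.11 in MDA-MB-231. The descriptions also hold a p number, whose meaning is not given. Samples of like replicate number share it in MDA-MB-231 and differ in it in MDA-MB-468. Whether the replicate numbers pair samples is thus not settled in either line.

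The members and gene lists were chosen with earlier results of these data known. Named genes were all members, at most the 5 called genes of largest change per pathway list and comparison, the 3 genes most like each member, EGFR neighbors within 1 Mb and SMARCA4; 1 item that this rule would name is not reported here. Alternatives were a pseudocount of 0.1, a mean FPKM of at least 5, an intensity trend, 1 fit of all samples, scaling to the 75th percentile, quantile normalization, replicate blocks, leaving out each sample, a log2 fold change over 1 and, chosen after seeing the data, a loess correction for GC content, which was known for 94.3% of the rows. Positions are from GENCODE on GRCh37 and promoters from RefSeq. Figures were drawn with matplotlib 3.10.9.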

Additional observations from a re-analysis of the deposited data

Results flagged for a closer look

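The change with SMARCA4 KO differed between the cell lines for 3 members, by the interaction contrast of limma over all 12 samples. On the log2 scale, MDA-MB-468 minus MDA-MB-231, it was -0.73 for TGFA (adjusted p = 0.00296), -0.66 for ERBB3 (adjusted p = 0.0387) and -0.42 for ERBB2 (adjusted p = 0.0267). Groups of 3 samples were not examined for outlying samples.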

How the results depend on the processing

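Over the alternatives run, 491 of 512 member changes kept their side of the limit for a call, 19 lost and 2 gained a call, and no called change turned its sign. The low-value filter and the fits without a sample enter fewer genes or samples and the higher fold limit admits fewer calls, while for the other settings the cause was not tested. In MDA-MB-468 the member count of 0 became 1 (ERBB3) with a mean FPKM of at least 5 and with 1 fit of all 12 samples. The pathway count of 1 became 5 with that filter, 8 with 1 fit of all 12 samples, 4 with the replicate block, 0 with a block on the p numbers of the descriptions, 0 with a log2 fold change over 1 and 2 with the GC correction, and ran from 0 to 6 without each sample (6 without KO replicate 1, 0 without each other sample). The count over all genes there, 247, was 0 without control replicate 2 or KO replicate 2, 474 without KO replicate 1, 27 and 12 without control replicates 1 and 3, and 5 without KO replicate 3. In MDA-MB-231 the replicate block, which there also matches the p numbers, left 0 members (TGFA 0.71, adjusted p = 0.0707), 0 pathway genes and 0 genes in all. A log2 fold change over 1 left 0 members and 0 pathway genes in this line. Its pathway count ran from 1 to 3 and its member count stayed at 1 without each sample, and its count of 426 over all genes ran from 99 (without KO replicate 2) to 311 (without KO replicate 3), with 173 without KO replicate 1 and 264 to 281 without a control replicate. For the difference between the lines, members ran from 1 to 3 and pathway genes from 8 to 16 without each sample (1 member without MDA-MB-231 control replicate 1, KO replicate 1 or KO replicate 2 and without MDA-MB-468 control replicate 1, KO replicate 2 or KO replicate 3), and the replicate block kept 3 members. Between control cells members stayed at 7, and a log2 fold change over 1 left 31 pathway genes of 52, which ran from 50 to 54 without each sample. The replicate block changed no other member's call. ERBB3 in MDA-MB-468 ran from -0.61 to -0.39 without each sample (adjusted p from 0.0927 to 0.237). ERBB2 in MDA-MB-231 had adjusted p from 0.0338 to 0.188 over all alternatives. Changes with KO rose with GC content across genes (Spearman 0.30 and 0.29), and corrected for it TGFA in MDA-MB-231 changed by 0.63 and ERBB3 in MDA-MB-468 by -0.55 (adjusted p = 0.0022 and 0.0538). Depth is unknown, so the counting error of the low genes AREG and EREG in MDA-MB-468 could not be given, and the log2(FPKM + 1) scale compresses their changes.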
